A study of Homo sapiens with 10 samples.

Results

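The genes described here encode 48 assembly factors of the large (60S) ribosomal subunit, chosen by name from a list that leaves out the helicases named DDX. The list was drawn up with earlier results of these data known, and the counts below describe it only. All 48 were found among the 20263 genes of the expression table, and all 48 passed the filter on low values that left 11663 genes for testing. RRP15 reached that filter (1 TPM or more in 5 or more of the 10 libraries) through the treated cells, which alone met it. It was at or above 1 TPM in 5 of 5 LY libraries and in 3 of 5 DMSO libraries. TPM is a transcript abundance scaled to a common library total and corrected for transcript length. Because it is per length, TPM can also be compared between genes.

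Large subunits are built in the nucleolus, where ribosomal RNA is transcribed, cut, chemically modified and folded together with ribosomal proteins. Assembly factors bind the growing particle in waves, hold RNA and protein in place, and are stripped off by GTPases and AAA ATPases as the particle moves to the nucleoplasm, through the nuclear pores and into the cytoplasm. Most are conserved from yeast to human, and fast-growing tumour cells carry large nucleoli in which these factors are concentrated.

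The cells were PANC-1, an established human cell line derived from a pancreatic ductal tumour. One group of 5 libraries came from cells treated with 20 µM LY for 24 h, and LY is read as lycorine, which the series title names and which is a plant alkaloid known to block protein synthesis on ribosomes. The other 5 libraries came from cells given DMSO for the same time. All 10 libraries are from 1 cell line. Whether they stand for separate cultures is not said, and the p-values therefore measure only the spread among these libraries, which may be technical. The treated libraries are called LY-1 to LY-5 and the controls NC-1 to NC-5. The design text counts 4 samples in each group where the labels have 5, and all 10 libraries were used.

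Library totals of reads are unknown, because TPM keeps no depth. Control library NC-2 stood apart: mitochondrially encoded genes took 37.5% of its TPM, against 12.2% to 14.1% in the other 4 controls and 6.43% to 14.9% in LY. NC-2 was the lowest control for 25 of the 48 factors and the highest for 14. The same count was not made over all tested genes, so it is not shown to be particular to these factors. Of the epithelial markers, KRT8 measured 1069 TPM or more in every library and KRT18 was higher in LY (941 to 1088 TPM) than in DMSO (664 to 833 TPM), whereas KRT7 and EPCAM stayed under 2 TPM and KRT19 was lower in LY (15.8 to 24.6 TPM) than in DMSO (123 to 166 TPM). Vimentin (VIM), high in this line, was lower in LY (2911 to 3709 TPM) than in DMSO (3989.6 to 4520.0 TPM). The acinar markers PRSS1, CPA1 and CELA3A, the endocrine markers INS, GCG and CHGA, and CD3E, PECAM1, DCN and LUM were listed at 0 in all 10 libraries. Among markers of other cell types, CD68 was higher in LY (131 to 232 TPM) than in DMSO (34.5 to 47.3 TPM), CDH5 was low but also higher in LY (2.68 to 3.22 TPM against 0.0988 to 0.535 TPM), COL1A1 was lower in LY (0.229 to 0.601 TPM) than in DMSO (2.57 to 3.82 TPM), and VWF, PTPRC and COL3A1 at most 0.114 TPM. The part of these markers in the results was not tested.

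Transcripts of 60S assembly factors were higher in LY-treated cells. Of 48 factors, 44 rose, 0 fell and 4 did not pass the test (limma, Benjamini-Hochberg adjustment over all 11663 tested genes, adjusted p under 0.05). All 48 estimates were above 0, so that 0 factors were lower at an unadjusted p under 0.05 as well. Over all tested genes 39.8% rose and 24.9% fell. A rise of at least 2-fold was found in 28 factors, where 12.4% of all tested genes rose that much, and every LY library lay above every DMSO library in 42 factors, where this held for 32.7% of all tested genes. RRP15, which met the filter through the LY libraries, is counted in the 44, the 28 and the 42. The median log2 fold change (LY over DMSO, on the log2(TPM + 1) scale) was 1.09 for the factors and 0.17 for all tested genes, a distance of 0.93. Counts for single roles below are to be read beside the shares of all tested genes, 39.8% up, 24.9% down and 12.4% at least 2-fold up. Means are given ± SD over n = 5 libraries per group and log2 fold changes ± SE. The 4 factors that rose at least 4-fold were RBM28, GTPBP4, NIFK and GNL2, and the 4 that did not pass were NOC2L, NSA2, NPM1 and TMA16.

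**Figure D1:**
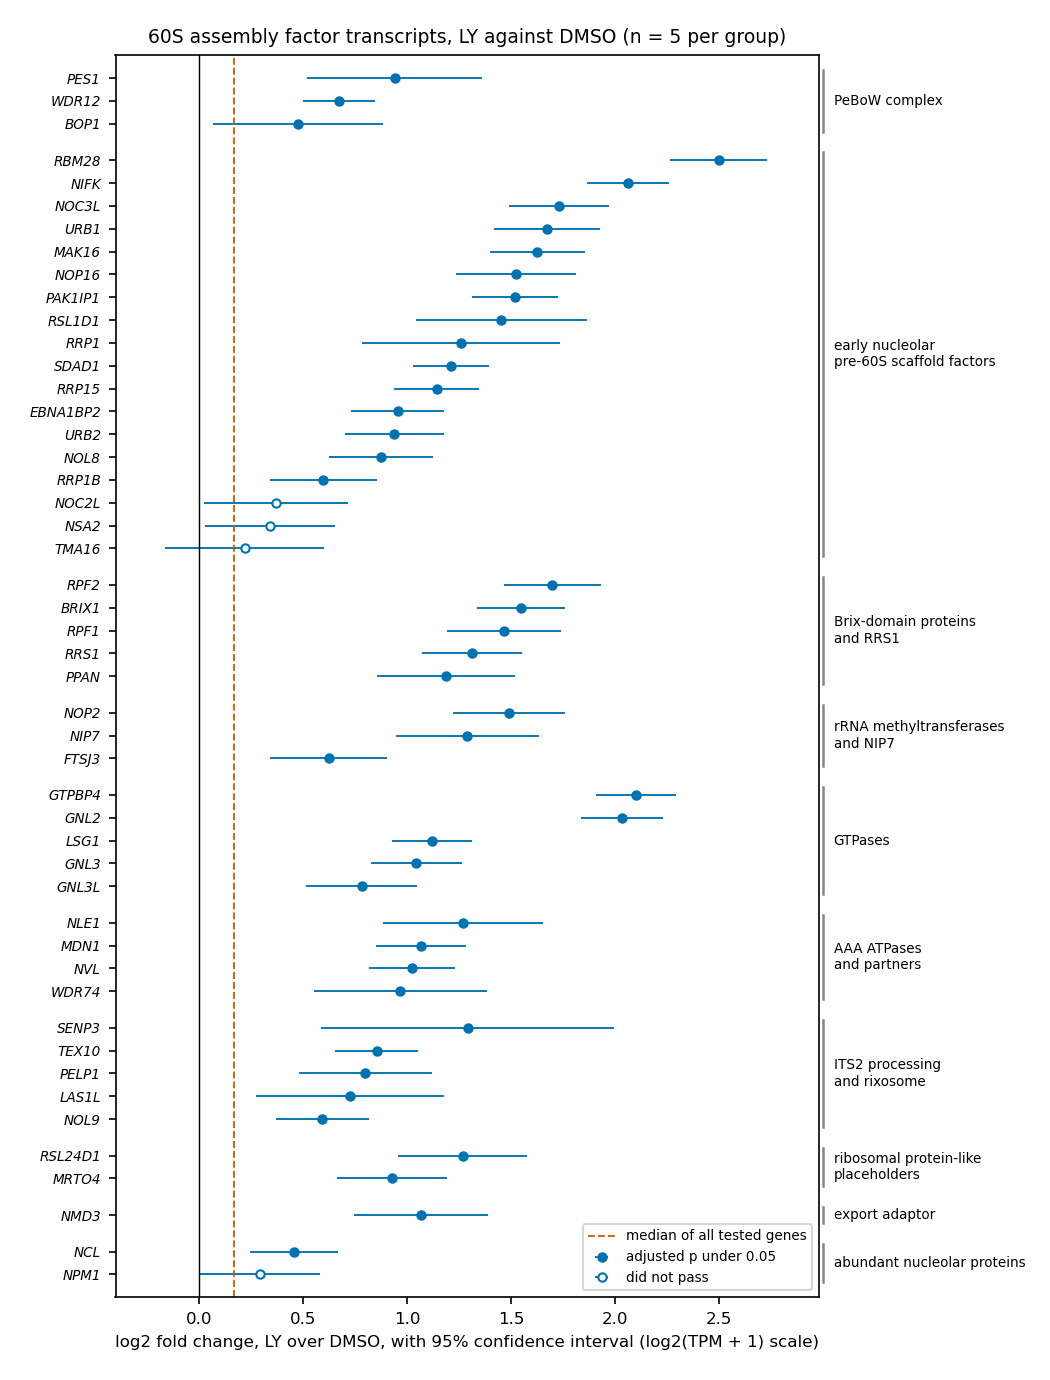
Log2 fold change of each 60S assembly factor, LY over DMSO, with its 95% confidence interval (horizontal axis, log2(TPM + 1) scale), for 48 genes grouped by role (vertical axis). Filled points had an adjusted p under 0.05 and open points did not, and the dashed line marks the median of all tested genes at 0.17. RBM28 lies farthest right at 2.50 and TMA16 farthest left at 0.22.

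The counts of factors changed little with the scaling of the libraries, while those of all genes changed more. The median of all tested genes was 0.17 as deposited, 0.012 after median-ratio scaling, 0.051 after quantile normalization and -0.080 after scaling to the upper quartile, and the split of all genes moved from 39.8% up and 24.9% down to 33.0% and 33.1%, 34.8% and 31.7%, and 28.7% and 37.5%. The factors numbered 43, 44 and 42 up under these scalings, with 0 down in each, and their median stayed 0.92, 0.81 and 0.91 above that of all genes. Without NC-2 the count was 45 up and 0 down, beside 39.5% up and 31.0% down over all tested genes, whose median fell to 0.099. Without NC-2 and LY-1 it was 47 up and 0 down, beside 39.8% up and 29.99% down and a median of 0.12.

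RBM28, an RNA-binding protein of the early pre-60S particle, changed most among the 48 factors. It measured 81.2, 83.4, 111, 95.1 and 93.6 TPM in LY-1 to LY-5 and 17.03, 15.8, 15.3, 13.4 and 16.2 TPM in NC-1 to NC-5. Each LY library was more than 4 times as high as each control, and the groups did not overlap. It averaged 92.8 ± 11.9 TPM with LY and 15.5 ± 1.36 TPM with DMSO (a log2 fold change of 2.50 ± 0.11, adjusted p = 1.21e-08), which is rank 49 of 11663 genes by size of increase. RBM28 lies on hg38 (GENCODE 29) at chromosome 7, 128297685 to 128343908, minus strand (ENSG00000106344).

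Of the 18 factors placed in the early nucleolar group, RBM28 included, 15 rose and 3 did not pass. The group was set by choice of list, and the stage at which each factor acts was not measured. NIFK, a partner of the proliferation protein Ki-67, measured 279, 218, 255, 249.7 and 219.6 TPM in LY-1 to LY-5 and 58.7, 59.7, 55.7, 55.6 and 57.4 TPM in NC-1 to NC-5. All treated libraries were far above all controls (a log2 fold change of 2.06 ± 0.09, adjusted p = 1.21e-08). On the same build NIFK lies at chromosome 2, 121726945 to 121736923, minus strand (ENSG00000155438). NOC3L, which travels with NOC2L through the nucleolus, rose from 30.4 to 104 TPM (1.73 ± 0.11 on the log2 scale), MAK16 from 21.4 to 68.4 TPM (1.63 ± 0.10), NOP16 from 136 to 387 TPM (1.52 ± 0.13) and PAK1IP1 from 29.4 to 86.1 TPM (1.52 ± 0.09). RSL1D1, a nucleolar protein with a domain like that of ribosomal protein uL1, rose from 132 to 378 TPM (1.45 ± 0.19), and its LY libraries were widely spread, from 240.4 TPM in LY-4 to 523 TPM in LY-3. Smaller increases were measured for SDAD1 (from 34.6 to 81.5 TPM, 1.21 ± 0.08), EBNA1BP2 (from 244 to 473 TPM, 0.95 ± 0.10) and NOL8 (from 33.5 to 62.6 TPM, 0.88 ± 0.11). RRP15 had the lowest level of all 48 factors, 3.32 ± 0.266 TPM with LY and 0.956 ± 0.130 TPM with DMSO (1.14 ± 0.09). At so low a level the log2(TPM + 1) scale lessens a difference, and the ratio of the RRP15 means was 3.47.

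Paralogous and partner genes within this early set did not move by the same amount. URB1, a large scaffold protein, rose from 23.6 to 76.9 TPM (1.67 ± 0.12), and URB2, another scaffold protein of early particles, from 14.5 to 28.6 TPM (0.94 ± 0.11). The ratio of URB1 to URB2 TPM within a library was 2.59 to 2.90 in LY and 1.48 to 1.79 in DMSO, with no overlap. RRP1 and its paralogue RRP1B, both on chromosome 21, rose from 8.999 to 22.3 TPM (1.26 ± 0.22) and from 7.92 to 12.4 TPM (0.60 ± 0.12). Their ratio was 1.27 to 2.04 in LY and 0.688 to 1.32 in DMSO, and the groups overlapped, with LY-1 inside the range of the controls. These pairs were chosen after their values were seen, and the differences within pairs were not tested.

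TMA16, a factor of nucleolar pre-60S particles, had the smallest change of the 48 factors. It measured 38.5, 29.9, 47.1, 39.5 and 35.98 TPM in LY-1 to LY-5 and 35.7, 23.8, 28.7, 30.01 and 47.6 TPM in NC-1 to NC-5. The groups overlapped widely, with the highest value in a control library, and it averaged 38.2 ± 6.22 TPM with LY and 33.2 ± 9.14 TPM with DMSO (a log2 fold change of 0.22 ± 0.18, adjusted p = 0.286, unadjusted 95% confidence interval -0.16 to 0.60). It ran from 0.11 without NC-2 to 0.36 without NC-5, and its sign was negative with quantile and upper-quartile scaling. NOC2L measured 296 ± 33.6 TPM with LY and 232 ± 47.6 TPM with DMSO (a log2 fold change of 0.37 ± 0.16, adjusted p = 0.0574) and NSA2 76.1 ± 11.7 TPM with LY and 60.03 ± 11.8 TPM with DMSO (a log2 fold change of 0.34 ± 0.14, adjusted p = 0.0514). NC-2 departed in opposite directions for these genes: it held 149 TPM of NOC2L against 242 to 266 in the other controls, and 80.8 TPM of NSA2 against 51.5 to 56.7. Without NC-2, NSA2 passed (log2 fold change 0.45, adjusted p = 0.0034) and NOC2L did not (0.22, adjusted p = 0.0511).

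**Figure D2:**
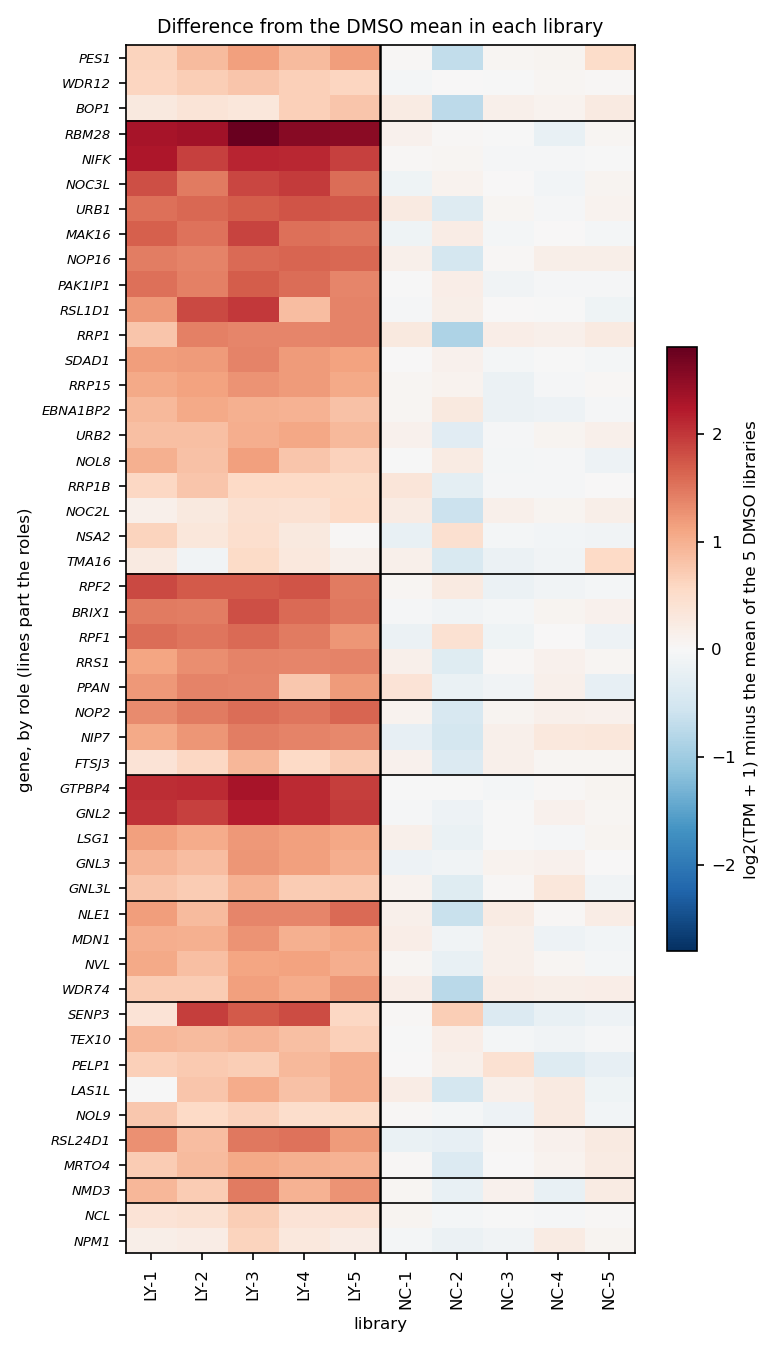
Each row is 1 of 48 genes and each column 1 library, and colour gives log2(TPM + 1) less the mean of the 5 DMSO libraries. Red covers nearly all of the 5 LY columns, deepest in RBM28, NIFK, GTPBP4 and GNL2, and NC-2 is the control column that departs most from the others.

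PES1, BOP1 and WDR12 form the PeBoW complex, which is needed to process the spacer RNA between the mature large-subunit RNAs. All 3 rose, by less than the median factor. PES1 measured 232, 282, 333, 279.7 and 340.1 TPM in LY-1 to LY-5 and 155, 93.2, 156, 160.3 and 214 TPM in NC-1 to NC-5, which put each LY library above each control (a log2 fold change of 0.94 ± 0.19, adjusted p = 0.00103). BOP1 measured 258, 273, 264, 336 and 363 TPM in LY-1 to LY-5 and 250.2, 128, 234, 228 and 252 TPM in NC-1 to NC-5. Here the 3 lowest LY libraries lay close above the 4 higher controls, and the increase was smaller (a log2 fold change of 0.48 ± 0.19, adjusted p = 0.0402). Without NC-2 it was 0.30 (adjusted p = 0.0319). BOP1 did not pass with median-ratio (adjusted p = 0.0624), quantile (adjusted p = 0.175) or upper-quartile scaling (adjusted p = 0.194), with no filter (adjusted p = 0.0578), or without LY-2 (adjusted p = 0.0525), LY-4 (adjusted p = 0.0867), LY-5 (adjusted p = 0.0954) or NC-4 (adjusted p = 0.0536). The ratio of PES1 to BOP1 TPM was 0.832 to 1.26 in LY and 0.621 to 0.851 in DMSO, and the groups overlapped by 1 library on each side. WDR12, the third subunit, rose from 17.9 to 29.2 TPM (0.67 ± 0.08) and stood far below its partners in both groups, with a TPM of 0.0767 to 0.120 of that of BOP1 in LY and 0.0683 to 0.141 in DMSO.

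The Brix-domain proteins, which share an RNA-binding fold, and RRS1 all rose at least 2-fold, where 12.4% of all tested genes did. RPF2 and RRS1 bring the 5S RNA particle into the pre-60S subunit. RPF2 measured 171, 158, 158, 161 and 131 TPM in LY-1 to LY-5 and 48.9, 56.6, 41.96, 44.1 and 45.1 TPM in NC-1 to NC-5, and its highest control, NC-2, lay far below its lowest treated library (a log2 fold change of 1.70 ± 0.11, adjusted p = 1.09e-07). RRS1 rose from 63.4 to 158 TPM (1.31 ± 0.11), BRIX1 from 64.7 to 192 TPM (1.55 ± 0.10) and RPF1 from 59.4 to 164 TPM (1.47 ± 0.13). PPAN had the smallest increase of the group and measured 134, 152, 150.1, 97.6 and 132 TPM in LY-1 to LY-5 and 74.8, 50.1, 53.1, 63.8 and 48.4 TPM in NC-1 to NC-5, with no overlap (a log2 fold change of 1.19 ± 0.15, adjusted p = 2.73e-05). A read-through gene, PPAN-P2RY11, is listed apart from PPAN and shares its sequence, and the sum of both gave a similar difference (log2 fold change 1.18, adjusted p = 2.45e-06).

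Among the enzymes that methylate large-subunit RNA, NOP2, which makes 5-methylcytosine, changed more than FTSJ3, a ribose methyltransferase, although the difference between them was not tested. NOP2 measured 436, 481, 516, 491 and 539 TPM in LY-1 to LY-5 and 186, 128, 184, 192 and 189 TPM in NC-1 to NC-5. No LY library was below 436 TPM and no control above 192 TPM (a log2 fold change of 1.49 ± 0.12, adjusted p = 8.50e-07). FTSJ3 measured 92.8, 107, 136, 105 and 117 TPM in LY-1 to LY-5 and 77.5, 54.8, 79.1, 74.5 and 74.4 TPM in NC-1 to NC-5, and its LY and DMSO libraries came close without overlapping (a log2 fold change of 0.63 ± 0.13, adjusted p = 0.00109). NIP7, a small RNA-binding partner of these particles, rose from 77.05 to 186 TPM (1.29 ± 0.16).

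All 5 GTPases rose, and GTPBP4 and GNL2, which act on nucleolar and nuclear pre-60S particles, had the largest increases. GTPBP4 measured 289, 292, 341, 290.5 and 264 TPM in LY-1 to LY-5 and 66.7, 67.6, 64.8, 68.8 and 71.1 TPM in NC-1 to NC-5. The controls were closely spaced and the groups far apart (a log2 fold change of 2.10 ± 0.09, adjusted p = 1.20e-08). GTPBP4 is at chromosome 10, 988019 to 1019936, plus strand (ENSG00000107937). GNL2, which acts before export to the cytoplasm, measured 331, 304, 374, 344 and 314 TPM in LY-1 to LY-5 and 78.7, 72.6, 80.1, 87.2 and 83.9 TPM in NC-1 to NC-5. Here too the lowest LY library was over 3 times the highest control (a log2 fold change of 2.03 ± 0.09, adjusted p = 1.21e-08). GNL3 (nucleostemin), a nucleolar protein of stem and tumour cells, measured 349, 327, 423, 395 and 359.8 TPM in LY-1 to LY-5 and 163, 166, 192, 193 and 181 TPM in NC-1 to NC-5. Its groups did not overlap (a log2 fold change of 1.04 ± 0.10, adjusted p = 2.66e-06). GNL3L, the paralogue of GNL3, measured 32.8, 31.2, 37.6, 31.4 and 31.7 TPM in LY-1 to LY-5 and 20.02, 14.5, 19.1, 23.6 and 17.3 TPM in NC-1 to NC-5, with a lower level than GNL3 and no overlap (a log2 fold change of 0.78 ± 0.12, adjusted p = 1.41e-04). The ratio of GNL3 to GNL3L TPM overlapped between groups, at 10.5 to 12.6 in LY and 8.12 to 11.4 in DMSO. LSG1, the cytoplasmic GTPase that frees the export adaptor NMD3, rose from 49.8 to 109 TPM (1.12 ± 0.09).

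**Figure D3:**
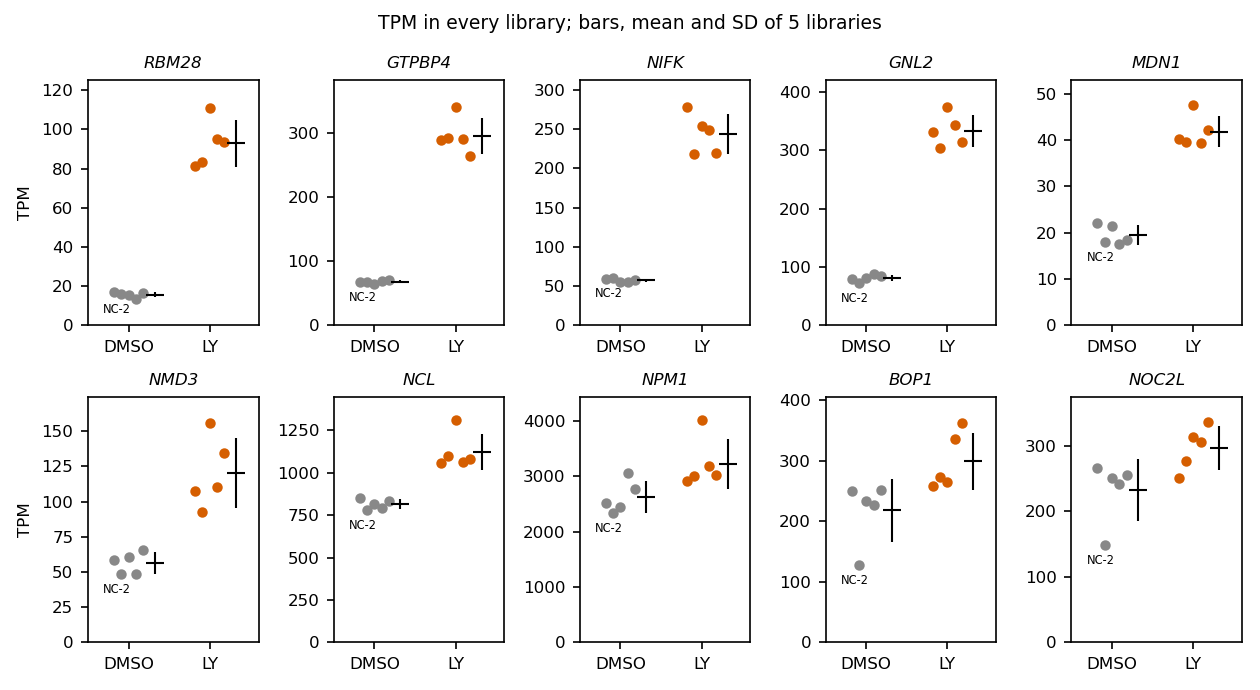
TPM (vertical axis, from 0) in each of 5 DMSO and 5 LY libraries for 10 factors, with the mean and SD of each group beside the points. The groups are widely apart for RBM28, GTPBP4, NIFK and GNL2, while NPM1 and NOC2L overlap and the NC-2 points of BOP1 and NOC2L lie below the other controls.

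MDN1 (midasin) and NVL are AAA ATPases that pull assembly factors off the particle, and NLE1 and WDR74 are factors on which they act or with which they work. MDN1 measured 40.2, 39.7, 47.5, 39.4 and 42.3 TPM in LY-1 to LY-5 and 22.1, 17.9, 21.4, 17.6 and 18.4 TPM in NC-1 to NC-5, and every LY library lay above every control (a log2 fold change of 1.07 ± 0.10, adjusted p = 1.98e-06). NVL rose from 26.9 to 55.8 TPM (1.02 ± 0.09). NLE1 measured 52.2, 42.4, 59.4, 59.8 and 69.3 TPM in LY-1 to LY-5 and 25.2, 14.4, 26.5, 23.2 and 26.2 TPM in NC-1 to NC-5, and its lowest control was NC-2 (a log2 fold change of 1.27 ± 0.18, adjusted p = 5.28e-05). WDR74 measured 149, 149, 200.1, 185 and 213 TPM in LY-1 to LY-5 and 102, 53.4, 105, 102 and 102 TPM in NC-1 to NC-5, and NC-2 was again the lowest control, at 53.4 TPM (a log2 fold change of 0.97 ± 0.19, adjusted p = 7.79e-04). All 4 genes of this group rose.

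LAS1L and NOL9 are the nuclease and the RNA kinase that cut and trim the second internal spacer of the ribosomal RNA, and PELP1, TEX10 and the SUMO protease SENP3 form with them a nucleoplasmic complex. All 5 passed as listed, and the groups overlapped for LAS1L and SENP3. NOL9 measured 19.7, 17.2, 18.2, 16.1 and 16.5 TPM in LY-1 to LY-5 and 11.5, 10.8, 10.04, 13.6 and 10.7 TPM in NC-1 to NC-5, a small difference with no overlap (a log2 fold change of 0.59 ± 0.10, adjusted p = 3.00e-04). TEX10 rose from 29.6 to 54.4 TPM (0.85 ± 0.09) and PELP1 from 57.2 to 98.9 TPM (0.80 ± 0.15). LAS1L measured 186 ± 46.8 TPM with LY and 110.2 ± 21.9 TPM with DMSO (a log2 fold change of 0.73 ± 0.21, adjusted p = 0.00864), with LY-1 at 108 TPM inside the range of the controls and the other LY libraries at 185 TPM or more. WDR18, a further subunit of this complex that was counted with the other pathway genes, fell from 98.6 to 56.8 TPM (a log2 fold change of -0.73 ± 0.23, adjusted p = 0.0144). For WDR18, NC-2 (47.3 TPM) lay below all LY libraries and the other controls (109 to 113 TPM) above them.

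The call of SENP3 depended on how a neighbouring read-through gene was treated. SENP3 measured 57.7, 172, 149, 160.3 and 66.7 TPM in LY-1 to LY-5 and 45.5, 71.7, 33.7, 38.1 and 40.2 TPM in NC-1 to NC-5, and 2 LY libraries lay below NC-2 (a log2 fold change of 1.29 ± 0.32, adjusted p = 0.0039). The read-through gene SENP3-EIF4A1, on the same strand and listed apart, measured 192, 6.71, 16.9, 93.9 and 142 TPM in LY-1 to LY-5 and 127, 13.5, 182, 121 and 171 TPM in NC-1 to NC-5. It was low in LY-2, LY-3 and NC-2, where SENP3 took most of the sum. SENP3 also exceeded it in LY-4, at 160.3 against 93.9 TPM. Summed, the pair measured 211 ± 40.1 TPM in LY against 169 ± 52.5 in DMSO, which did not pass (log2 fold change 0.37 ± 0.23, adjusted p = 0.179). How reads were divided between the pair is not stated.

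**Figure D4:**
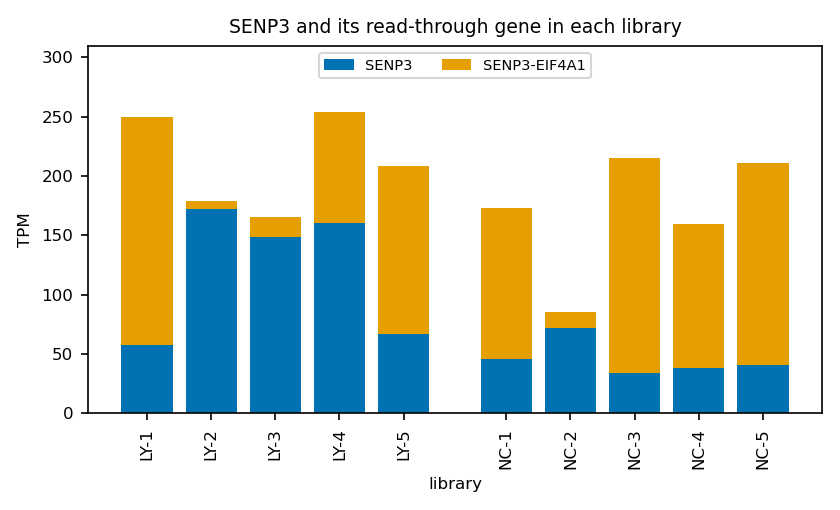
TPM of SENP3 and of its read-through gene SENP3-EIF4A1, stacked, in each of 10 libraries. The blue part, SENP3, is tallest in LY-2, LY-3 and LY-4, whereas the full bars run from 166 to 254 in LY and from 85.1 to 215 in DMSO.

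MRTO4 and RSL24D1 resemble ribosomal proteins and hold their places on the immature subunit: MRTO4 that of the stalk protein RPLP0 and RSL24D1 that of RPL24. RSL24D1 measured 125, 93.6, 143, 148 and 117 TPM in LY-1 to LY-5 and 44.4, 43.1, 52.2, 55.6 and 60.5 TPM in NC-1 to NC-5, so that each LY library exceeded each control (a log2 fold change of 1.27 ± 0.14, adjusted p = 8.98e-06). MRTO4 measured 129, 144, 164, 157 and 155 TPM in LY-1 to LY-5 and 80.2, 59.5, 79.1, 83.8 and 91.4 TPM in NC-1 to NC-5, likewise without overlap (a log2 fold change of 0.93 ± 0.12, adjusted p = 3.21e-05). RPL24 rose from 2203 to 3673 TPM (0.73 ± 0.11), and RPLP0 measured 2397 ± 366 TPM with LY and 2704 ± 776 TPM with DMSO (a log2 fold change of -0.13 ± 0.23, adjusted p = 0.639). Without NC-2, which held 1413 TPM of RPLP0 where the other controls held 2823 TPM or more, RPLP0 passed as lower (-0.35, adjusted p = 0.0312). The ratio of MRTO4 to RPLP0 TPM was 0.0561 to 0.0780 in LY and 0.0260 to 0.0421 in DMSO, and that of RSL24D1 to RPL24 was 0.0282 to 0.0390 in LY and 0.0186 to 0.0286 in DMSO. The first ratio did not overlap between groups, and the second did by 1 library on each side.

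**Figure D5:**
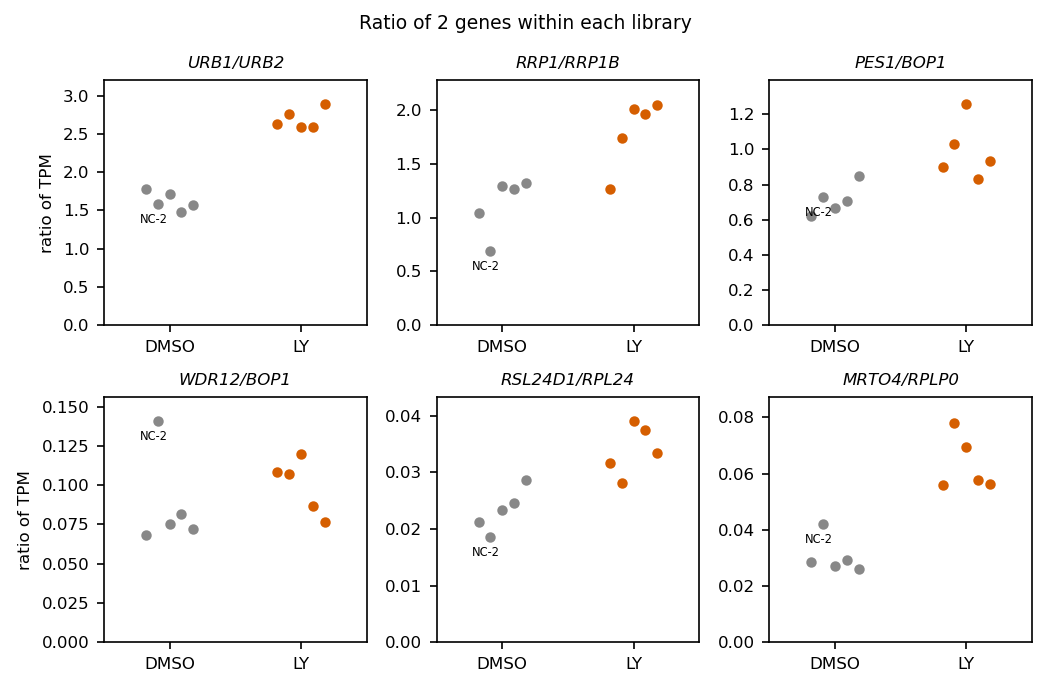
Ratio of the TPM of 2 genes within each library (vertical axis, from 0), for 6 pairs, with 1 point per library in DMSO and LY. URB1/URB2 and MRTO4/RPLP0 separate the groups, while the other 4 pairs overlap and WDR12/BOP1 is highest in NC-2.

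NMD3 is the adaptor that links the pre-60S particle to the export receptor XPO1. NMD3 measured 108, 92.7, 156, 111 and 135 TPM in LY-1 to LY-5 and 58.3, 48.7, 60.6, 48.4 and 65.97 TPM in NC-1 to NC-5, with LY-2 the lowest treated library and still above all controls (a log2 fold change of 1.07 ± 0.15, adjusted p = 5.02e-05). XPO1, counted with the other pathway genes, fell: it measured 164, 136, 173, 158 and 131 TPM in LY-1 to LY-5 and 208, 181, 207, 217 and 207 TPM in NC-1 to NC-5, and all LY libraries lay below all controls (a log2 fold change of -0.42 ± 0.10, adjusted p = 0.00324).

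NCL (nucleolin) and NPM1 (nucleophosmin) are abundant nucleolar proteins with many roles beside assembly, and both had high levels and small differences. NCL measured 1054, 1096, 1310.3, 1065 and 1079 TPM in LY-1 to LY-5 and 853, 781, 812, 789.8 and 832 TPM in NC-1 to NC-5. All LY libraries were above all controls (a log2 fold change of 0.46 ± 0.10, adjusted p = 0.00138), and with upper-quartile scaling NCL did not pass (adjusted p = 0.0944). NPM1, the most abundant of the 48 factors, measured 2912, 3010.3, 4016, 3189 and 3016 TPM in LY-1 to LY-5 and 2509.8, 2339, 2446, 3061 and 2772 TPM in NC-1 to NC-5. Its groups overlapped, since NC-4 exceeded 3 of the LY libraries, and it did not pass (a log2 fold change of 0.29 ± 0.13, adjusted p = 0.0691, unadjusted 95% confidence interval 0.01 to 0.58). With quantile normalization NPM1 passed (log2 fold change 0.40, adjusted p = 0.0191), as it did in limma without a trend (adjusted p = 0.0425). GENCODE release 29 names 45 pseudogenes after NPM1, 9 after RSL24D1 and 8 after NIFK, with which reads could be shared.

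Across the 48 factors the log2 fold change was only loosely related to the control level (Pearson r = -0.22, Spearman rho = -0.12 with the log2 DMSO mean). This describes 48 genes measured in the same libraries, and the control values enter both measures.

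Promoter sequences from RefSeq (GRCh38.p14) cover 250 bases before to 50 after a transcription start, and 41 of 48 factors had 1 or more, 47 windows in all, since some factors have more than 1 start. RRS1, BOP1, RSL1D1, RRP1B, URB2, RPF2 and MAK16 were not matched. The windows were searched on both strands for 4 motifs, each counted separately whether or not it overlapped another. Like the list of factors, the motifs were chosen with earlier results of these data known. They were CACGTG (the canonical E-box of basic helix-loop-helix factors), CCGGAAGT (bound by ETS factors), the palindrome of the NRF1 site, and the palindromic core-promoter element known to bind ZBTB33. The E-box was found in 16 of 47 windows (34.0%), belonging to 15 factors, against 7.26% of all 35116 RefSeq windows and 9.54% of the 13732 windows of tested genes. The ETS motif was found in 13 of 47 windows (27.7%), against 4.14% of all windows and 7.95% of those of tested genes. The ZBTB33 palindrome occurred in 1 window, that of NOL9 (2.13%, against 0.424% of all windows and 0.837% of those of tested genes), and the NRF1 palindrome in 0 (against 1.24% and 2.04%). Of 17 E-box matches in the factors' windows, 10 lay after the start (58.8%), where 11.1% of the 2821 matches in all windows and 9.95% of the 1497 in windows of tested genes did. These matches describe the letters only.

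The surroundings of the E-box in 10 of these 15 factors are shown 5′ to 3′ on the strand of the gene, with the CACGTG in capitals, because they come from several roles and the box lies near the start in each.
GNL2 chr1:37595917-37595946 (minus strand): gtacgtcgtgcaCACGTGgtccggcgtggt
GNL3 chr3:52686026-52686055 (plus strand): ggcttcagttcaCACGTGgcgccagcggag
PES1 chr22:30591880-30591909 (minus strand): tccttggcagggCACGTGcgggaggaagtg
NOP2 chr12:6568242-6568268 (minus strand): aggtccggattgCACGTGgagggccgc
NOC3L chr10:94362903-94362932 (minus strand): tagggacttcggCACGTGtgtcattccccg
MRTO4 chr1:19251807-19251836 (plus strand): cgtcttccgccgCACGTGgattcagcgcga
NLE1 chr17:35142274-35142303 (minus strand): ctctttctcctcCACGTGgggacgcaggat
MDN1 chr6:89819750-89819779 (minus strand): cgtgtgctcaccCACGTGtggtgcccctct
TEX10 chr9:100352955-100352984 (minus strand): gcgggctgcgatCACGTGagcacagcaggg
TMA16 chr4:163494684-163494713 (plus strand): cttctcaggcgcCACGTGggattcggcccg
In GNL2 the E-box begins at base 4 after the start (the start being base 1), in GNL3 and TMA16 at base 7, in NLE1 at base 13, in PES1 at base 14, in MRTO4 at base 15, in NOC3L at base 20, in MDN1 at base 28 and in NOP2 at base 36. Counting bases before the start as negative, it begins at -30 in TEX10, and MDN1 has a further E-box at -155. Of the 5 factors not shown, NOL8 and PAK1IP1 hold it at -9 and -1, PELP1 and SDAD1 far upstream at -242 and -228, and EBNA1BP2 at base 43 in one window and at -237 in another. TMA16, with the smallest difference of all factors, and GNL2, with one of the largest, both hold it. The 15 factors with an E-box had a median log2 fold change of 1.04 (0.22 to 2.03), and the 26 without one 1.13 (0.29 to 2.50).

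The ETS motif (CCGGAAGT, or ACTTCCGG where it lies on the other strand) is shown in capitals for 4 of the 13 factors that hold it, of which 3 rose at least 2-fold and NSA2 did not pass.
GTPBP4 chr10:988342-988419 (plus strand): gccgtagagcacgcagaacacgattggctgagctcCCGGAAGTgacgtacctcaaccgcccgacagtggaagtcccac
NOC3L chr10:94362946-94363023 (minus strand): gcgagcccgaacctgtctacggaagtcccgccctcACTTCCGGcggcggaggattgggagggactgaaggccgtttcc
NSA2 chr5:74767088-74767165 (plus strand): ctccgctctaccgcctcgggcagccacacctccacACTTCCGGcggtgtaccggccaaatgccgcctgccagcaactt
RSL24D1 chr15:55196942-55196999 (minus strand): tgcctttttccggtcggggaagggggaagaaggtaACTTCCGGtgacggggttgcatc
NOC3L holds both motifs, the ETS motif at -49. GTPBP4 holds it at -57, NSA2 at -126 and RSL24D1 at -23. NOC2L, which did not pass either, also holds it.

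Other genes of 60S assembly moved mostly the same way. Of 39 such genes outside the 48, 33 rose, 3 fell and 3 did not pass, beside 39.8% up and 24.9% down over all tested genes. All 8 DDX helicases of 60S assembly rose, with DDX31 at 106 ± 2.16 TPM with LY and 28.5 ± 2.73 TPM with DMSO (a log2 fold change of 1.86 ± 0.09, adjusted p = 1.43e-08) the largest and DDX54 at 127 ± 8.38 TPM with LY and 91.2 ± 8.09 TPM with DMSO (a log2 fold change of 0.48 ± 0.09, adjusted p = 6.96e-04) the smallest difference. Of 31 genes outside the DDX family, 25 rose, and EFL1, the GTPase of the last cytoplasmic step, had the largest increase, from 12.02 to 51.01 TPM (a log2 fold change of 1.995 ± 0.10, adjusted p = 2.26e-08). SBDS, its cofactor, rose from 128 to 509 TPM (1.99 ± 0.09), and EIF6, the factor they evict to allow subunit joining, from 196 to 385 TPM (adjusted p = 6.18e-04), both chosen after their values were seen. The 3 that fell were C7orf50 (from 219 to 111 TPM, a log2 fold change of -0.94 ± 0.19, adjusted p = 9.67e-04), WDR18 and XPO1, and each was also lower under all 3 scalings and without NC-2. The 3 that did not pass were SPATA5 (AFG2A), HEATR3 and CINP, also chosen after their values were seen.

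For comparison, 46 of 50 factors of the small-subunit processome and 40S assembly rose and 0 fell, with 0 lower at an unadjusted p under 0.05 too (limma, median log2 fold change 1.21). In the same fit 39.8% of all tested genes rose and 24.9% fell, which applies to the next list as well. Ribosomal proteins of the large subunit, the cargo of these factors, gave another count: 4 of 47 rose, 0 fell and 43 did not pass, with a median of 0.075, below the 0.17 of all tested genes, and 1 was lower at an unadjusted p under 0.05 (limma). That count depended on NC-2 and on the scaling. Without NC-2, 4 rose and 11 fell (median -0.14), beside 39.5% up and 31.0% down over all tested genes (median 0.099). With median-ratio scaling 4 fell, beside 33.1% of all tested genes. With quantile normalization 5 fell (and 9 rose), beside 31.7%, and with upper-quartile scaling 10 fell, beside 37.5%. Without NC-2 and with the other libraries scaled by median ratio, 3 rose and 21 fell (median -0.24). Over all tested genes 35.1% rose and 35.6% fell in that setting (median 0.0035). The small-subunit factors numbered 44 to 46 up and 0 down under these same settings. The 48 assembly factors together held 10472 to 13180 TPM in LY and 5842 to 7052 TPM in DMSO, and the 47 ribosomal proteins 73432 to 92551 TPM and 49903 to 91624 TPM. NC-2 was the lowest control in both sums, and the other controls held 6428 to 7052 TPM of the assembly factors. Without NPM1 and NCL, the assembly factors held 6505 to 7854 TPM in LY and 2722 to 3294 TPM in DMSO. The difference between these lists was not tested.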

How the data were processed

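RNA of 10 PANC-1 libraries was sequenced (5 LY, 5 DMSO). The authors deposited TPM per gene, 1 column per library, each summing to 999932 to 999967 over 20263 genes. Builds GRCm38, mm10 and hg38 are named without roles in the submitters' processing notes, and the gene IDs are human. Aligner, counter and annotation: not given in the sources used here. LY columns carry the number of a sample title. Columns NC-1 to NC-5 occur in no title, and were taken as the DMSO group without matching single samples. Symbols came from an Ensembl name table (20148 genes) and GENCODE release 29 (76), which left 39 unnamed, and 3 listed names (AFG2A, AFG2B, AIRIM) were matched through RefSeq synonyms. Positions are from GENCODE 29 (hg38). Of the 48 factors, 24 overlap another listed gene, 4 of them on the same strand, and use of strand in counting is not stated.

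Genes reaching 1 TPM in 5 or more libraries were kept. Their log2(TPM + 1) values were modelled on treatment alone with limma 3.58.1 (limma-trend) in R 4.3.3, and the fit was tested on simulated data. P-values are two-sided and Benjamini-Hochberg adjusted over 11663 genes, with 0.05 as the threshold. Values are mean ± SD (n = 5 per group) and log2 fold change ± SE.

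The members, roles, pathway lists and motifs were chosen with earlier results of these data known. Every factor is named. Values per library are given for the largest and smallest change in each role, for any factor that fell, and for PES1, GNL3, MDN1, NMD3, MRTO4, RSL24D1, NCL and NPM1; NIFK, GNL2 and XPO1 were added after their values were seen. Of each pathway list the largest and smallest change are named, and RPL24 and RPLP0 of the ribosomal proteins. Alternatives were pseudocounts 0.1 and 0.5, no filter, a minimum TPM of 5, 3 scalings, removal of mitochondrially encoded genes, 2 other moderations and leaving out each library. Added after seeing the data were median-ratio scaling of the libraries other than NC-2, omission of both NC-2 and LY-1, and sums with read-through genes.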

Additional observations from a re-analysis of the deposited data

Results flagged for a closer look

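Within groups of 5 libraries, 1 library lay far from the others (Dixon's ratio above 0.71) in 18 of 96 combinations of factor and group (18.8%). For normally distributed values this ratio flags about 1 in 20, but the 96 combinations share the same 10 libraries and are not independent. NC-2 accounted for 12 of the 18. It was lowest, with the range of the other controls in parentheses, for BOP1 at 128 TPM (228 to 252), NOC2L at 149 TPM (242 to 266), NOP2 at 128 TPM (184 to 192), NOP16 at 94.7 TPM (136 to 150.3), FTSJ3 at 54.8 TPM (74.4 to 79.1), WDR74 at 53.4 TPM (102 to 105), RRS1 at 49.8 TPM (64.6 to 69.5), NLE1 at 14.4 TPM (23.2 to 26.5) and RRP1 at 4.32 TPM (9.70 to 10.6). NC-2 was highest for NSA2 at 80.8 TPM (51.5 to 56.7), RPF1 at 79.0 TPM (51.9 to 59.3) and PAK1IP1 at 33.4 TPM (27.2 to 28.9). Over all 48 factors NC-2 was the lowest control in 25 and the highest in 14, and it also held 37.5% of its TPM in mitochondrially encoded genes. The part of that share in these values was not tested. Flags and counts of this kind, here and for the LY libraries below, were not made over all tested genes.

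Among LY libraries, LY-3 was highest for NPM1 at 4016 TPM (2912 to 3189 in the others), NCL at 1310.3 TPM (1054 to 1096), SDAD1 at 91.8 TPM (76.2 to 80.4) and GNL3L at 37.6 TPM (31.2 to 32.8), and it was the highest LY library in 25 of 48 factors. RRP1 was lowest in LY-1 at 15.4 TPM (23.7 to 24.4), and RRP1B was highest in LY-2 at 14.0 TPM (11.8 to 12.2).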

How the results depend on the processing

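The count of factors that rose ran from 42 to 45 under the planned settings and reached 47 without NC-2 and LY-1, and 0 fell under every setting run. Over all tested genes, the share up under the planned settings ran from 28.7% (upper-quartile scaling) to 42.3% (a minimum TPM of 5). The share down ran from 21.9% (no filter) to 37.5% (upper-quartile scaling). Leaving out each library in turn gave 43 to 45 up. Counts of the other pathway genes ran from 30 to 34 up, with 3 down throughout. The factors' median log2 fold change of 1.09 became 0.93 (median-ratio), 0.86 (quantile), 0.83 (upper quartile), 0.94 (mitochondrially encoded genes removed) and 0.94 (median-ratio scaling of the libraries other than NC-2), and it ran from 1.04 (without NC-2) to 1.13 (without NC-1) when each library was left out. The median of all tested genes moved with it. TMA16 turned to -0.00049 under quantile normalization and to -0.041 under scaling to the upper quartile. A minimum TPM of 5 left 47 factors tested, without RRP15, and 43 rose, beside 42.3% of all genes tested in that setting. BOP1, NCL and, when summed with its read-through gene, SENP3 were the factors that lost their call under a setting, with BOP1 between 0.30 (without NC-2) and 0.54 (without NC-5) when each library was left out. NSA2, NPM1 and NOC2L gained one under some settings: NOC2L passed without LY-1 (adjusted p = 0.0442) or NC-1 (adjusted p = 0.0473), and NSA2 without LY-5 (adjusted p = 0.0232). No paired analysis was possible because the numbers of the control columns are not tied to single samples in the labels. Depth is unknown, so no counting error can be given.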
